A study of Mus musculus with 9 samples.

Results

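Genes of cholesterol and fatty acid synthesis were examined in RNA-seq libraries of sorted mouse bone marrow cells. They were taken as a list of 30 symbols and not by a cut on their values, though with earlier results of these data known. They make up 30 of the 20635 gene symbols in the deposited table and hold 121 of its 58094 transcripts. All 3 populations came from femur and tibia marrow of C57BL/6J mice aged 10 weeks, with no genetic or drug treatment in the labels, and lay within the KSL CD34- gate (lineage-negative cells that carry c-Kit and Sca-1 but not CD34), which is enriched for blood stem cells. Syndecan-2+ and Syndecan-2- cells were sorted from it by their surface level of Syndecan-2, a heparan sulfate proteoglycan, and Parent is the gate as a whole, so that Parent holds cells of both kinds. Each population has 3 libraries of 10000 sorted cells. The sorted gene, Sdc2, stood at 4.17 to 5.23 CPM in Syndecan-2+, 0.203 to 0.477 CPM in Syndecan-2- and 1.43 to 2.00 CPM in Parent libraries. The labels give male mice in one place and both sexes in another.

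Cholesterol is built from acetyl-CoA through mevalonate and farnesyl diphosphate to squalene, which is closed into lanosterol and trimmed to cholesterol. Its enzymes are switched on together by the transcription factor SREBP-2 (gene Srebf2) when sterols in the endoplasmic reticulum are scarce, because the escort protein Scap then carries SREBP to the Golgi for cleavage and the Insig proteins no longer hold it back. Srebf1 encodes SREBP-1, whose main targets are the enzymes that make fatty acids from citrate. Blood stem cells are known for low proliferation, and membrane growth draws on both pathways.

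The start of a gene is where such factors bind, so the promoters of 4 members that differed between the sorted populations, and of Hmgcs1, are shown first. They are windows of 300 bases from RefSeq on GRCm38.p6, from 250 bases before the start site to 50 after it, 5′ to 3′ on the gene's strand. Capitals mark CCAAT or its complement ATTGG, the letters bound by the factor NF-Y, and in Hmgcs1 also a sterol response element, TCACNCCAC. The windows lie at chr15:82147019-82147318 on the plus strand for Srebf2, chr13:8885356-8885655 on the plus strand for Idi1, chr10:76531355-76531654 on the plus strand for Lss, chr11:120824498-120824797 on the minus strand for Fasn and chr13:119690101-119690400 on the plus strand for Hmgcs1.
Srebf2: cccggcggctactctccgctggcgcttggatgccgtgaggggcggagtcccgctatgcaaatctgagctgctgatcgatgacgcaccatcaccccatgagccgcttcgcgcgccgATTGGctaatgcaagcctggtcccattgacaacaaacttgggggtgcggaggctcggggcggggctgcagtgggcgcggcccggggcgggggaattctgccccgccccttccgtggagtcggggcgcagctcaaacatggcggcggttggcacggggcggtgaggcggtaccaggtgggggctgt
Idi1: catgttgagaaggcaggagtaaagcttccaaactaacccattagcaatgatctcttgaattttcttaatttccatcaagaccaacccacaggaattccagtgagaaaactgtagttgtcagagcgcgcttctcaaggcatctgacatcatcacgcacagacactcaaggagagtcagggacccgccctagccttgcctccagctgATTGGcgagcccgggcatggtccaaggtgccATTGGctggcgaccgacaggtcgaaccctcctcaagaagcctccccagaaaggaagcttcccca
Lss: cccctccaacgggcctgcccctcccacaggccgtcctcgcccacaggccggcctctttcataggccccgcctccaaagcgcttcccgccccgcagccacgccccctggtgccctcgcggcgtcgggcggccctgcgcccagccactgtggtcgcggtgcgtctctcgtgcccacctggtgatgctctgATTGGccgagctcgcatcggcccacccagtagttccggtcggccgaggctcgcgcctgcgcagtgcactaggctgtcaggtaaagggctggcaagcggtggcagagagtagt
Fasn: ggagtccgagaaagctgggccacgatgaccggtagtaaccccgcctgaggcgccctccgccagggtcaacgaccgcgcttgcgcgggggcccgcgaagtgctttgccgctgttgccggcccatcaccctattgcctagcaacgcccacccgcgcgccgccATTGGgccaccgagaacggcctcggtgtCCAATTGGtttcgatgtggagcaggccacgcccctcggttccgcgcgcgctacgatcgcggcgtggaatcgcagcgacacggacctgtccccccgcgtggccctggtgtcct
Hmgcs1: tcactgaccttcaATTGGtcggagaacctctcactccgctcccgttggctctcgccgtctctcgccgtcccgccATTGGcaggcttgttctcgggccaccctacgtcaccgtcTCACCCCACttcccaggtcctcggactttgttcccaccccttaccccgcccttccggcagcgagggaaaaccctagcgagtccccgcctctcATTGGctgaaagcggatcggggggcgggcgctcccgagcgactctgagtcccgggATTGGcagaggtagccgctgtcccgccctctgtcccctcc
Windows were found for 24 of the 30 members, and a gene was counted once if any of its windows held the letters on either strand. CCAAT stood in 20 of these 24 genes (83.3%), against 41.1% of the 27025 genes with a window. The GC box GGGCGG, bound by Sp1, was in 20 of 24 (83.3%) and in 38.2% of all genes, the E-box CACGTG in 5 of 24 (20.8%) and in 8.09% of all genes, and TCACNCCAC in 1 of 24 (4.17%, Hmgcs1, beginning at position -137) and in 1.44% of all genes. In Fasn the matches that begin at -62 and -59 overlap, since CCAATTGG reads as both CCAAT and ATTGG. These matches are letters only, and a window without them says nothing about binding elsewhere.

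Values are CPM (reads scaled to a common library total), summed over the transcripts of a gene and given as mean ± SD over 3 libraries. By the smallest step between values, 1 CPM is 15.5 to 20.6 reads depending on the library, and 3 reads equal 0.146 to 0.194 CPM, a floor that covers counting error only. Of the 30 members 29 reached 1 CPM in at least 3 of 9 libraries and were tested, and only Scd1 did not. A gene was called higher or lower at a Benjamini-Hochberg adjusted p under 0.05 in limma over all 13997 genes tested, on log2 of CPM + 1, a scale that understates the change of genes with few reads. The libraries are not stated to come from separate animals, so the p-values measure the spread between these libraries, which may be technical. In bulk RNA, fewer cells that express a gene and less RNA per cell cannot be told apart.

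Levels per length of transcript differed widely among the members. On the scale of CPM per kilobase, averaged over all 9 libraries, Acly, the enzyme that splits citrate into acetyl-CoA, was highest at 25.5 ± 1.96 (SD, 9 libraries). Srebf2 followed at 19.1 ± 3.06, Scd2 at 18.1 ± 1.497, Srebf1 at 16.7 ± 2.63 and Fasn at 14.0 ± 1.83 CPM per kilobase, and each neighbouring pair in this order overlapped in range across the libraries. The mevalonate and sterol enzymes lay lower, between 0.714 for Mvd and 8.51 for Ebp. For Ebp, the sterol isomerase, 74.5% of the CPM was assigned to a retained-intron transcript, so its level is not that of coding RNA alone.

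Between Syndecan-2+ and Syndecan-2- libraries 4 of 11 genes of the sterol steps and 2 of 6 of sterol sensing and transport were called higher in Syndecan-2+, and none of either lower. Of 5 tested genes that make, elongate or desaturate fatty acids, 2 were called lower and none higher. After rescaling with TMM factors 2 of 11 sterol genes were higher and 1 lower, 2 of 6 sensing genes were higher and 3 of 5 fatty acid genes were lower, and the difference between steps was not tested. Of the 29 members 7 were called higher (24.1%), against 20.5% of all genes tested, and 2 were called lower (6.90%), against 9.51% of all genes. For 15 of 29 members the 3 Syndecan-2+ values lay wholly to one side of the 3 Syndecan-2- values, as they did for 42.5% of all genes. The list as a whole stood close to the background, with a median log2 fold change of 0.16 beside 0.10 for all genes tested. TMM factors assume that most genes do not change, and they moved the median of all genes to -0.01. After TMM rescaling 5 members were higher (17.2%, against 14.1% of all genes) and 4 lower (13.8%, against 14.3%), with a member median of 0.05. With the replicate number as a block 7 members were higher (background 24.5%) and 4 lower (background 11.1%).

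**Figure D1:**
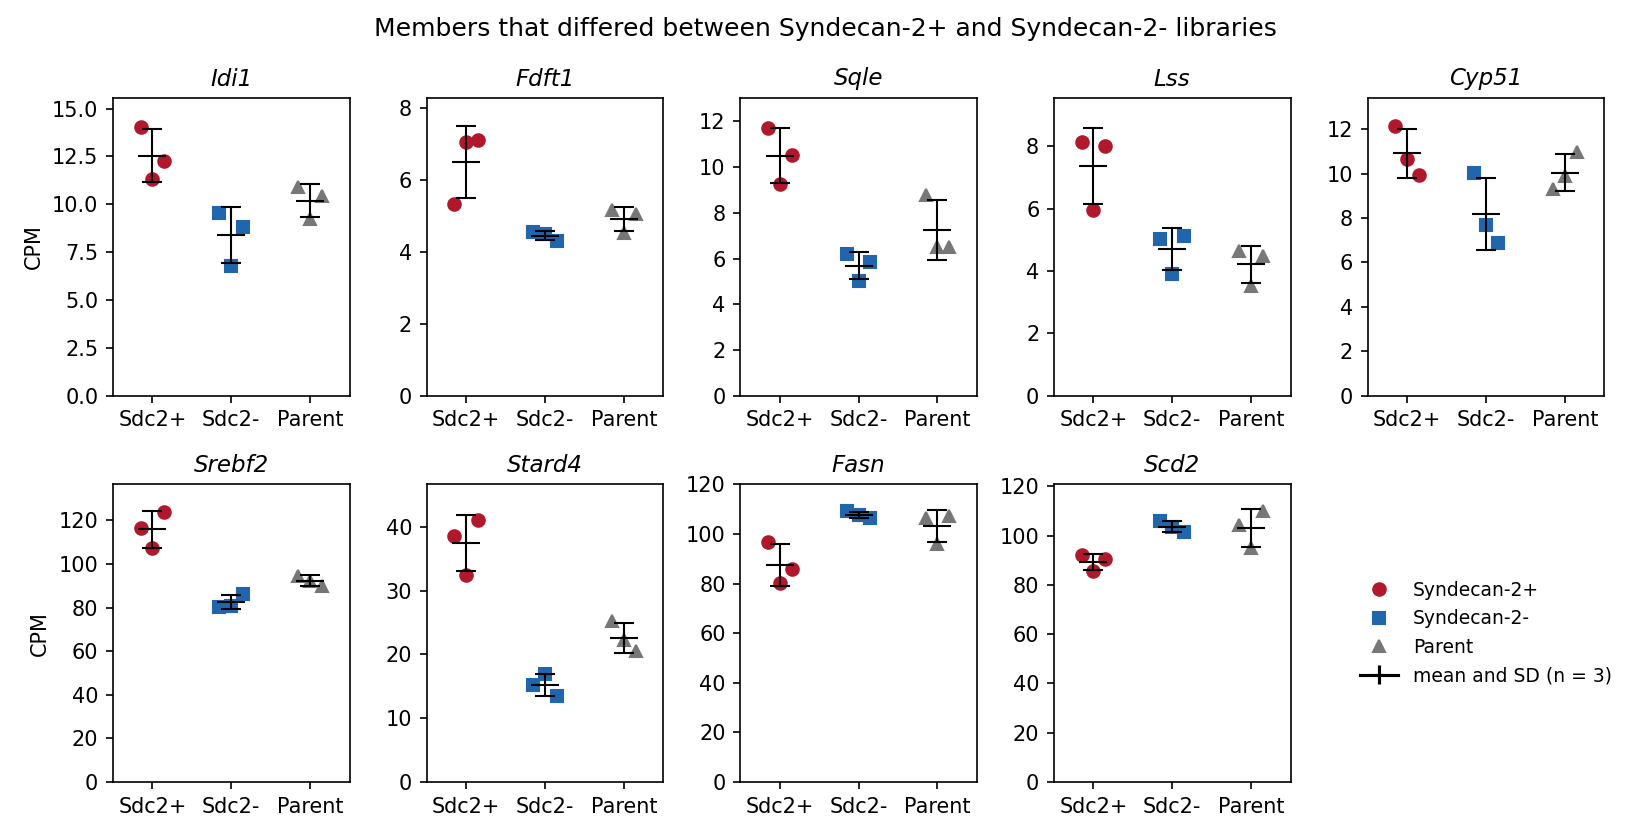
CPM in every library (points) with mean and SD (black bars, n = 3) of the 9 members called between Syndecan-2+ (left) and Syndecan-2- (middle), with Parent on the right; each axis starts at 0. The first 7 genes are higher in Syndecan-2+ and Fasn and Scd2 are lower, and in Cyp51 the points of Syndecan-2+ and Syndecan-2- overlap (lowest 9.95 CPM against highest 10.0 CPM).

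The mevalonate steps, from acetyl-CoA to farnesyl diphosphate, had 1 of 7 genes called higher and none lower. That gene was Idi1 (ENSMUSG00000058258, chromosome 13, 8885501 to 8892451), the isomerase that makes dimethylallyl diphosphate. Idi1 had 14.0, 11.3 and 12.3 CPM in Syndecan-2+ libraries, against 9.57, 6.75 and 8.84 CPM in Syndecan-2- libraries. All Syndecan-2+ libraries lay above all Syndecan-2- libraries, at 12.5 ± 1.37 and 8.39 ± 1.46 CPM, a log2 fold change of 0.54 (SE 0.14, adjusted p = 0.00617). The other 6 genes of these steps had log2 fold changes between -0.36 (Mvd, mevalonate diphosphate decarboxylase) and 0.35 (Pmvk, phosphomevalonate kinase), each short of the threshold. Hmgcs1, the synthase of the step before mevalonate is formed, whose window held the sterol response element, had 11.9 ± 0.773 CPM in Syndecan-2+ and 12.6 ± 0.566 CPM in Syndecan-2- libraries (log2 -0.09, adjusted p = 0.604). Fdps, farnesyl diphosphate synthase, had 4.63 ± 1.07 CPM in Syndecan-2+ and 4.52 ± 0.592 CPM in Syndecan-2- libraries (log2 0.02, SE 0.17). Acat2, the acetoacetyl-CoA thiolase of the cytosol, is uncertain because a near-identical copy, Acat3, is listed at 1.33 to 2.75 CPM, and because it overlaps Tcp1 and the use of strand in counting is not stated.

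The sterol steps, from farnesyl diphosphate to cholesterol, had 4 of 11 genes called higher and none lower, with a median log2 fold change of 0.35. Those 4 are the first 4 enzymes in order: Fdft1 makes squalene, Sqle oxidises it, Lss closes the ring to lanosterol and Cyp51 removes its first methyl group. Sqle (ENSMUSG00000022351, chromosome 15, 59315077 to 59331192) had 11.7, 9.27 and 10.5 CPM in Syndecan-2+ libraries, against 6.19, 5.03 and 5.84 CPM in Syndecan-2- libraries. Sqle was 1.85-fold higher with no overlap, a log2 fold change of 0.78 (SE 0.15, adjusted p = 0.000554) that TMM rescaling left at 0.68 (adjusted p = 0.00134).

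Lss (ENSMUSG00000033105, chromosome 10, 76531588 to 76557138) had 8.14, 5.95 and 8.01 CPM in Syndecan-2+ libraries, against 5.04, 3.92 and 5.12 CPM in Syndecan-2- libraries. It was 1.57-fold higher with no overlap (log2 0.55, SE 0.17, adjusted p = 0.0177, and 0.0438 after TMM rescaling). The call for Lss was lost without Syndecan-2+ replicate 1 (adjusted p = 0.0800), Syndecan-2+ replicate 3 (0.0715) or Syndecan-2- replicate 2 (0.0839), and under quantile normalization (0.0870). Fdft1 (ENSMUSG00000021273, chromosome 14, 63145153 to 63177793) had 5.33, 7.06 and 7.10 CPM in Syndecan-2+ libraries, against 4.55, 4.50 and 4.30 CPM in Syndecan-2- libraries. The groups did not overlap (log2 0.45, SE 0.15, adjusted p = 0.0318), but the call did not hold after TMM rescaling (log2 0.35, adjusted p = 0.0964) or without Syndecan-2+ replicate 2 (0.111), Syndecan-2+ replicate 3 (0.117) or Syndecan-2- replicate 1 (0.0573), 2 (0.0656) or 3 (0.0816).

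Cyp51 (ENSMUSG00000001467, chromosome 5, 4081145 to 4104746) had 12.1, 10.7 and 9.95 CPM in Syndecan-2+ libraries, against 10.0, 7.695 and 6.89 CPM in Syndecan-2- libraries. The groups overlapped, the log2 fold change was 0.38 (SE 0.14, adjusted p = 0.0475), and after TMM rescaling it was 0.27 (adjusted p = 0.141). Leaving out any 1 of 8 libraries ended the call for Cyp51 (adjusted p between 0.0502 and 0.192), the exception being Syndecan-2- replicate 1, so it stands at the threshold.

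Of the 7 later sterol enzymes none was called on the deposited scale. Tm7sf2, a sterol reductase, had 1.16, 1.19 and 1.38 CPM in Syndecan-2+ libraries, against 2.13, 3.10 and 1.79 CPM in Syndecan-2- libraries. Its groups did not overlap (log2 -0.56, SE 0.21, adjusted p = 0.0506), and it was called lower after TMM rescaling (log2 -0.64, adjusted p = 0.0284) and with the replicate block (0.0446). Msmo1, the methyl oxidase, and Sc5d, the desaturase, had log2 fold changes of 0.35 and 0.42 short of the threshold (adjusted p = 0.149 and 0.122), and without Syndecan-2+ replicate 3 Msmo1 passed it (log2 0.53, adjusted p = 0.0358). Nsdhl, Hsd17b7, Ebp and Dhcr7, the dehydrogenases, isomerase and last reductase of the route, lay between -0.15 and 0.16. Summed over the 11 genes, sterol enzymes reached 73.2, 67.2 and 65.2 CPM in Syndecan-2+, 57.8, 53.0 and 54.4 CPM in Syndecan-2- and 62.3, 56.9 and 59.9 CPM in Parent libraries. The lowest Syndecan-2+ library lay above the highest Syndecan-2- and Parent libraries, also after TMM rescaling.

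Sterol sensing and transport had 2 of 6 genes called higher and none lower. Stard4 (ENSMUSG00000024378, chromosome 18, 33199355 to 33213862), which carries cholesterol through the cytosol to the endoplasmic reticulum, changed more than any other tested member. Stard4 had 38.6, 32.5 and 41.1 CPM in Syndecan-2+ libraries, against 15.1, 16.9 and 13.5 CPM in Syndecan-2- libraries. The lowest Syndecan-2+ library was far above the highest Syndecan-2- library, with means of 37.4 ± 4.40 and 15.2 ± 1.70 CPM, 2.46-fold higher (log2 1.24, SE 0.11, adjusted p = 1.35e-07; TMM log2 1.13).

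Srebf2 (ENSMUSG00000022463, chromosome 15, 82147266 to 82205376), the SREBP-2 gene, had 116, 107 and 124 CPM in Syndecan-2+ libraries, against 80.4, 80.8 and 86.5 CPM in Syndecan-2- libraries. It was 1.40-fold higher with no overlap (log2 0.48, SE 0.07, adjusted p = 3.31e-05; TMM log2 0.36, adjusted p = 0.000427). Its relative Srebf1 was not called, at 33.8 ± 2.80 CPM in Syndecan-2+ and 31.6 ± 2.32 CPM in Syndecan-2- libraries (log2 0.09, SE 0.09, adjusted p = 0.495), and its sign turned after TMM rescaling (-0.03). Scap, Insig1 and Insig2 had log2 fold changes of 0.16, 0.22 and 0.29, with adjusted p of 0.128, 0.352 and 0.233. The calls for Stard4, Srebf2, Sqle, Idi1 and Fasn in this comparison held under every alternative in which the gene was tested.

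**Figure D2:**
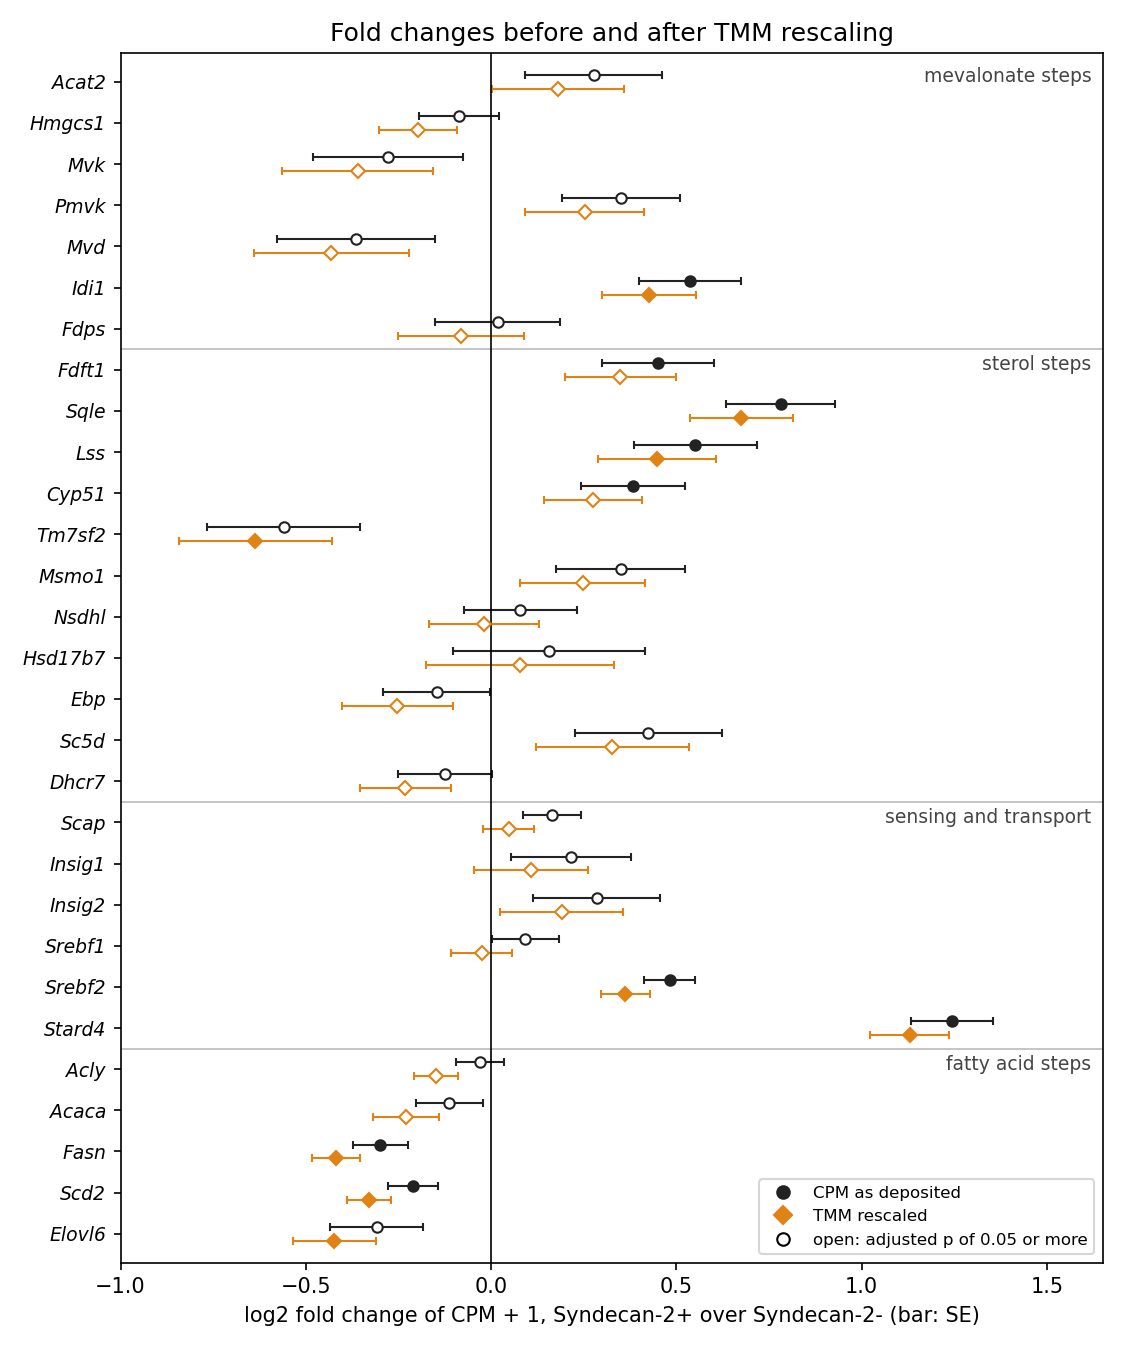
Log2 fold change of CPM + 1, Syndecan-2+ over Syndecan-2-, of the 29 tested members grouped by role, as deposited (black circles) and after TMM rescaling (orange diamonds); bars are SE and open symbols have an adjusted p of 0.05 or more. Stard4 stands at 1.24 and 1.13, Sqle at 0.78 and 0.68, and all 5 fatty acid genes lie below 0 on both scales.

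Fatty acid steps had 2 of 5 tested genes called lower and none higher. Fasn (ENSMUSG00000025153, chromosome 11, 120805940 to 120824178), the synthase that builds palmitate, had 96.8, 80.1 and 85.9 CPM in Syndecan-2+ libraries, against 109, 108 and 106 CPM in Syndecan-2- libraries. All Syndecan-2+ libraries lay below all Syndecan-2- libraries, at 81.4% of their mean (log2 -0.30, SE 0.07, adjusted p = 0.00538; TMM log2 -0.42, adjusted p = 0.000105). Scd2 (ENSMUSG00000025203, chromosome 19, 44293676 to 44306864), a stearoyl-CoA desaturase, had 92.0, 85.8 and 90.6 CPM in Syndecan-2+ libraries, against 106, 104 and 101 CPM in Syndecan-2- libraries. Its groups did not overlap either (log2 -0.21, SE 0.07, adjusted p = 0.0262; TMM log2 -0.33, adjusted p = 0.000387), but the call was lost without Syndecan-2+ replicate 2 (0.0968) or 3 (0.0530), without Syndecan-2- replicate 1 (0.0744) or 2 (0.0612), and with eBayes without a trend (0.103).

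Elovl6, which elongates palmitate, had 19.0, 16.0 and 17.6 CPM in Syndecan-2+ libraries, against 24.7, 20.5 and 20.8 CPM in Syndecan-2- libraries. Elovl6 did not overlap between the groups and missed the threshold (log2 -0.31, SE 0.13, adjusted p = 0.0750), while it was called lower after TMM rescaling (-0.42, adjusted p = 0.00839) and with the replicate block (0.0115). Acly and Acaca, the carboxylase that commits acetyl-CoA to fatty acids, had log2 fold changes of -0.03 and -0.11, and -0.15 and -0.23 after TMM rescaling (adjusted p = 0.0704 and 0.0671). With TMM rescaling and the replicate block together both were called lower (0.0478 for Acly and 0.0178 for Acaca). Summed over 6 genes, the fatty acid enzymes reached 329, 298 and 314 CPM in Syndecan-2+, 369, 361 and 342 CPM in Syndecan-2- and 362, 333 and 363 CPM in Parent libraries. The highest Syndecan-2+ library lay below the lowest Syndecan-2- and Parent library.

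Scd1, the desaturase known mainly from liver and fat, was not tested. It had 1.06, 0.755 and 0.340 CPM in Syndecan-2+ libraries, which is about 19.7, 15.6 and 6.18 reads, 0 CPM in all 3 Syndecan-2- libraries, and 0, 0.425 and 0.244 CPM in Parent libraries. The Syndecan-2+ mean of Scd1, 0.719 ± 0.363 CPM, was 4.60-fold the mean floor of 3 reads in Syndecan-2- libraries (0.156 CPM). This ratio of means is no lower bound for single libraries, since Syndecan-2+ replicate 3 had 0.340 CPM. The direction was opposite to that of Scd2, and reads of a copy as close as Scd2 may be split between them.

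**Figure D3:**
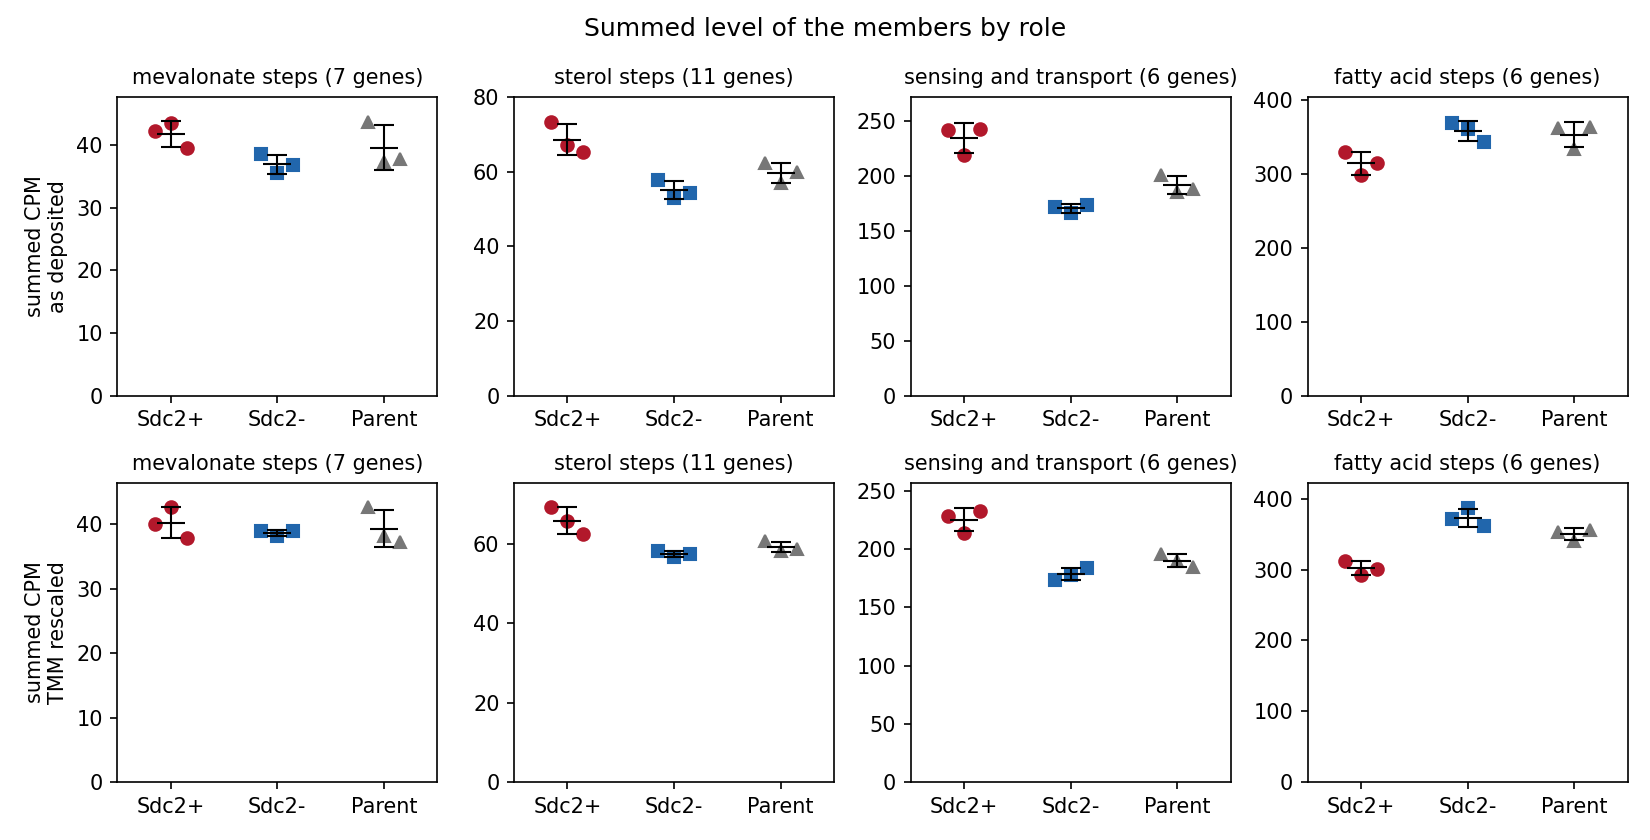
Summed CPM of the members of each role in every library (points) with mean and SD (black bars, n = 3), as deposited (top) and after TMM rescaling (bottom); Syndecan-2+ is on the left, Syndecan-2- in the middle and Parent on the right. Sterol enzymes and sensing genes are highest in Syndecan-2+ (68.5 and 234 CPM on average as deposited), and fatty acid enzymes are lowest there (314 CPM).

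Over all 30 members the sum was 659 ± 29.4 CPM in Syndecan-2+, 620 ± 15.4 CPM in Syndecan-2- and 643 ± 28.4 CPM in Parent libraries as deposited, and after TMM rescaling 633 ± 17.4 CPM in Syndecan-2+, 648 ± 10.3 CPM in Syndecan-2- and 639 ± 13.1 CPM in Parent libraries. The order of the sorted populations thus turned with the scaling, whereas the sensing genes summed to 1.37-fold and 1.26-fold and the sterol enzymes to 1.24-fold and 1.14-fold of Syndecan-2-, as deposited and after TMM rescaling. Most of the sensing difference lay in Srebf2 (116 CPM in Syndecan-2+ and 82.5 CPM in Syndecan-2- libraries) and Stard4 (37.4 and 15.2 CPM). The other 4 sensing genes were not called. Fatty acid enzymes summed to 87.9% and 80.8% of Syndecan-2-, and the mevalonate enzymes to 1.13-fold and 1.04-fold.

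Parent libraries, the unsorted gate, had a mean between those of the sorted populations for 22 of 30 members. Parent holds cells of both kinds, so a middle mean follows from the design. The share over all genes was not computed, so this count says nothing particular about the members. Comparisons with Parent share its libraries with each other, and the Syndecan-2+ libraries are also those of the comparison above. Of 29 members 4 were called higher in Syndecan-2+ than in Parent, against 9.90% of all genes, and 1 was called lower, against 7.31%. Stard4 had 37.4 ± 4.40 CPM in Syndecan-2+ and 22.6 ± 2.37 CPM in Parent libraries (log2 0.70, adjusted p = 0.000198). Srebf2 had 116 ± 8.38 CPM in Syndecan-2+ and 92.3 ± 2.45 CPM in Parent libraries (log2 0.32, adjusted p = 0.00281). Neither gene overlapped between these groups. Lss had 7.36 ± 1.23 CPM in Syndecan-2+ and 4.21 ± 0.607 CPM in Parent libraries (log2 0.68, adjusted p = 0.00805). Sqle had 10.5 ± 1.22 CPM in Syndecan-2+ and 7.27 ± 1.31 CPM in Parent libraries (log2 0.48, adjusted p = 0.0312), a call lost without Syndecan-2+ replicate 1 (0.138) or 3 (0.0835) or Parent replicate 2 (0.115) or 3 (0.113).

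Fasn had 87.6 ± 8.46 CPM in Syndecan-2+ and 103 ± 6.40 CPM in Parent libraries (log2 -0.24, adjusted p = 0.0373). Its groups overlapped, and the call was lost without Syndecan-2+ replicate 2 (0.170) or 3 (0.110) or Parent replicate 1 (0.119) or 3 (0.127). After TMM rescaling the same 4 members were higher (background 8.50%) and Fasn and Scd2 were lower (background 8.87%). With the replicate block 4 were higher (background 13.2%) and Fasn, Scd2 and Elovl6 were lower (background 9.14%, adjusted p = 0.0143 for Scd2 and 0.0406 for Elovl6).

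In Syndecan-2- against Parent libraries Stard4 alone was called. It had 15.1, 16.9 and 13.5 CPM in Syndecan-2- libraries, against 25.2, 22.2 and 20.5 CPM in Parent libraries, lower with no overlap (log2 -0.55, SE 0.11, adjusted p = 0.00962). The background was 2.54% of genes lower and 0.121% higher, and 2 members (Stard4 and Srebf2) had an unadjusted p under 0.05. The call for Stard4 was lost without Syndecan-2- replicate 3 (0.0581), without Parent replicate 1 (0.0725) and with eBayes without a trend (0.0683). Stard4 was thus called in all 3 comparisons on the deposited scale. Because Parent holds cells of both kinds, its middle place follows from the design and is no separate result.

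At the level of transcripts 61 of 121 member transcripts were tested, and 5 were called higher in Syndecan-2+, set against Syndecan-2- (background 4.93%) and 1 lower (background 3.09%). Transcript values divide the reads of a gene between overlapping models. Srebf2 has 1 listed transcript, which carries the gene's change. For Stard4 the main coding transcript Stard4-001 holds 90.8% of the CPM and had 34.0 ± 5.21 CPM in Syndecan-2+ and 13.7 ± 1.71 CPM in Syndecan-2- libraries (log2 1.25, adjusted p = 0.000376). The shorter Stard4-003 had 1.81, 1.05 and 1.23 CPM in Syndecan-2+ libraries, against 0.00424, 0.0366 and 0.00231 CPM, under the floor of 3 reads, in Syndecan-2- libraries, and 0.352, 0.00355 and 0.592 CPM in Parent libraries. It is among the 5 called but reached the filter through Syndecan-2+ libraries alone, so no test is given for it.

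Sqle has a pair of main coding transcripts. Sqle-001 held 52.8% of the CPM in Syndecan-2+ and 34.6% in Syndecan-2- libraries, and Sqle-003 held 35.03% in Syndecan-2+ and 56.4% in Syndecan-2- libraries. Sqle-001 had 6.22, 6.05 and 4.36 CPM in Syndecan-2+ libraries, against 2.49, 1.98 and 1.44 CPM in Syndecan-2- libraries, without overlap (log2 1.14, adjusted p = 0.0201). Sqle-003 had 3.68 ± 1.49 CPM in Syndecan-2+ and 3.21 ± 0.797 CPM in Syndecan-2- libraries (log2 0.11, SE 0.28, adjusted p = 0.887), and the difference between these transcripts was not tested. Pmvk, not called as a gene, had the transcript Pmvk-004 at 1.06, 0.941 and 2.04 CPM in Syndecan-2+ libraries, against 0.256, 0.00324 and 0.0896 CPM in Syndecan-2- libraries (log2 1.05, adjusted p = 0.0417), and at 2.06, 1.51 and 1.12 CPM in Parent libraries. Fasn-001, 96.3% of the gene's CPM, was the transcript called lower (log2 -0.31, adjusted p = 0.0404). Srebf1 has 12 listed transcripts, of which Srebf1-005 holds 50.5% and Srebf1-006 20.6% of the CPM, and none that was tested was called.

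Other lipid genes were counted from lists around the members. Like the members, the lists were chosen with earlier results of these data known, so their shares beside the background are descriptive. Of 9 genes that process SREBP or degrade its partners, Pgrmc1 was called higher (31.5 ± 2.28 CPM in Syndecan-2+ and 20.9 ± 1.43 CPM in Syndecan-2- libraries, log2 0.57, adjusted p = 0.000127) and Erlin1, a sterol-sensitive scaffold of the endoplasmic reticulum, lower (16.0 ± 0.386 CPM in Syndecan-2+ and 21.8 ± 3.58 CPM in Syndecan-2- libraries, log2 -0.41, adjusted p = 0.0158). With the replicate block Rnf139 (adjusted p = 0.0259) and Erlin2 (0.0127) were also higher.

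Genes of sterol efflux, storage and lysosomal release had 5 of 12 tested members called lower in Syndecan-2+ (41.7%, beside 9.51% of all genes), with a median of -0.09. Npc1 and Npc2, which export cholesterol from lysosomes, were lower by the largest amounts. Npc1 had 17.2 ± 0.327 CPM in Syndecan-2+ and 27.8 ± 2.89 CPM in Syndecan-2- libraries (log2 -0.66, adjusted p = 3.82e-05), and Npc2 had 20.2 ± 1.29 CPM in Syndecan-2+ and 30.1 ± 0.597 CPM in Syndecan-2- libraries (log2 -0.56, adjusted p = 4.82e-05). Abca1, the efflux pump, Mylip, the ligase that degrades lipoprotein receptors, and Rxrb, a partner of the sterol receptor LXR, were lower at log2 -0.43, -0.43 and -0.24 (adjusted p = 0.0112, 0.0127 and 0.0257). After TMM rescaling 6 genes of this list were lower.

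A further list held genes of fatty acid supply, elongation and desaturation outside the members. Of 17 tested genes 11 were called higher in Syndecan-2+, set against Syndecan-2- (64.7%, beside 20.5% of all genes), and 2 were called lower (11.8%, beside 9.51%), with a median of 0.40. After TMM rescaling 8 were higher (47.1%, beside 14.1%) and 2 lower (11.8%, beside 14.3%). Fads1, a desaturase of polyunsaturated fatty acids, had 34.1 ± 3.46 CPM in Syndecan-2+ and 15.9 ± 1.78 CPM in Syndecan-2- libraries (log2 1.05, adjusted p = 3.22e-07). Acss2, which makes acetyl-CoA from acetate, had 16.3 ± 2.08 CPM in Syndecan-2+ and 7.10 ± 1.35 CPM in Syndecan-2- libraries (log2 1.10, adjusted p = 1.12e-05). Elovl7, a long-chain elongase, had 3.66 ± 0.0623 CPM in Syndecan-2+ and 1.11 ± 0.362 CPM in Syndecan-2- libraries (log2 1.16, adjusted p = 0.000118). The lower genes were Elovl5, an elongase of polyunsaturated fatty acids, at 21.6 ± 2.28 CPM in Syndecan-2+ and 34.1 ± 2.30 CPM in Syndecan-2- libraries (log2 -0.63, adjusted p = 7.87e-05), and Fads3 at 3.40 ± 0.504 CPM in Syndecan-2+ and 6.30 ± 0.257 CPM in Syndecan-2- libraries (log2 -0.74, adjusted p = 0.00120).

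**Figure D4:**
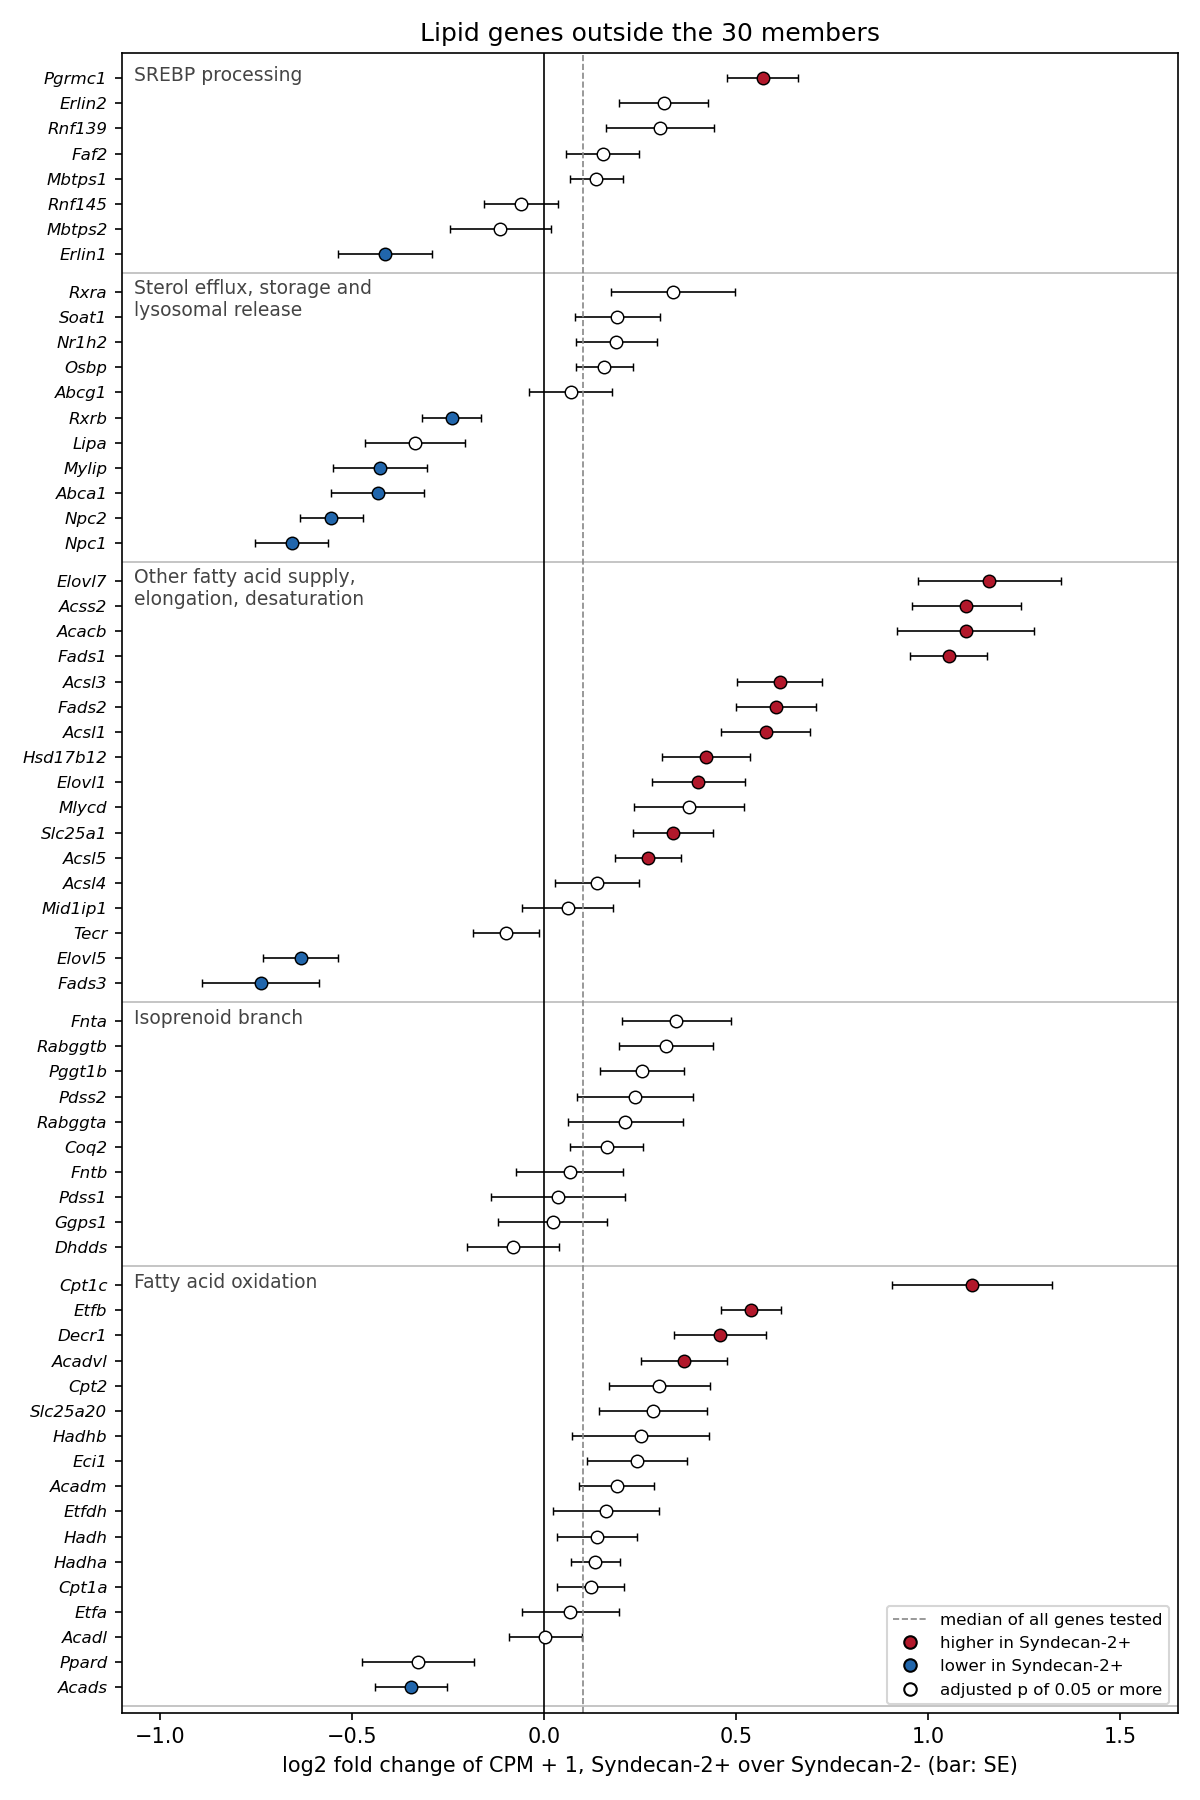
Log2 fold change of CPM + 1, Syndecan-2+ over Syndecan-2-, of tested lipid genes outside the 30 members, ordered by size within each list; bars are SE, red and blue mark genes called higher and lower, and the dashed line is the median of all genes tested (0.10). Of 17 genes of fatty acid supply, elongation and desaturation 11 are red, and Npc1 (-0.66) and Npc2 (-0.56) lie at the low end of the sterol efflux list.

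None of the 10 genes of the isoprenoid branch, which attach farnesyl and geranylgeranyl groups or build ubiquinone, was called in limma, and 3 had an unadjusted p under 0.05, or 0 after TMM rescaling. With the replicate block Fnta and Rabggtb, which encode prenyltransferase subunits, were higher (adjusted p = 0.0300 and 0.0125), 2 of 10 genes beside 24.5% of all genes with the block. Fatty acid oxidation had 4 of 17 tested genes called higher (23.5%, beside 20.5% of all genes) and 1 lower (5.88%, beside 9.51%), which is near the background. Etfb, an electron carrier of the pathway, had 61.1 ± 2.07 CPM in Syndecan-2+ and 41.8 ± 3.57 CPM in Syndecan-2- libraries (log2 0.54, adjusted p = 4.12e-05). Cpt1c, the carnitine palmitoyltransferase known mainly from brain, had 1.33 ± 0.321 CPM in Syndecan-2+ and 0.0691 ± 0.0282 CPM, under the floor, in Syndecan-2- libraries. It is among the 4 but reached the filter through Syndecan-2+ libraries alone, so no test is given for it. Decr1 and Acadvl were also higher (log2 0.46 and 0.36, adjusted p = 0.00734 and 0.0193; for Acadvl 0.117 after TMM rescaling), and Acads was lower (log2 -0.35, adjusted p = 0.00925).

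Cell type markers also differed between the sorted populations. All 6 stem cell markers (Procr, Slamf1, Mecom, Fgd5, Hlf and Vwf) were called higher and summed to 288 to 349 CPM in Syndecan-2+ and 65.8 to 70.7 CPM in Syndecan-2- libraries. All 4 markers of multipotent progenitors (Flt3, Cd48, Satb1 and Dntt) were called lower and summed to 63.3 to 97.3 CPM in Syndecan-2+ and 911 to 1006 CPM in Syndecan-2- libraries. Of the gate genes, Cd34 was lower (44.6 ± 6.36 CPM in Syndecan-2+ and 203 ± 11.7 CPM in Syndecan-2- libraries) and Kit higher (240 to 273 CPM in Syndecan-2+ and 155 to 178 CPM in Syndecan-2- libraries). Ly6a, the Sca-1 gene, had 7.54 ± 0.916 CPM in Syndecan-2+ and 5.46 ± 1.01 CPM in Syndecan-2- libraries and was not called. Of 6 plasma cell and B cell markers Jchain and Igkc were higher and the sum was 483 to 670 CPM in Syndecan-2+ and 3.79 to 5.03 CPM in Syndecan-2- libraries, while Ms4a1 is not listed. Of 6 stroma and fat cell markers, Adipoq, Lepr and Plin1 are not listed and none reached the filter, but Syndecan-2+ replicate 3 had 21.0 CPM of Col1a1, against at most 0.162 CPM in any other library. Klf1, an erythroid factor, was higher, Itgam and Csf3r of the neutrophil and monocyte list were lower, and of the endothelial list Kdr was higher and Pecam1 lower, while Nkg7, the one T and NK cell marker tested, was not called. The part of these cell types in the lipid gene differences was not tested. Without Syndecan-2+ replicate 3 the calls for Stard4, Srebf2, Sqle, Idi1 and Fasn between the sorted populations held.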

How the data were processed

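RNA-seq libraries of total RNA were deposited by the authors as CPM per transcript. The submitters' processing notes name STAR, Bowtie2 and GRCm38. No label or header names the counting program or the total behind the CPM. The listed transcripts sum to 51.5% to 54.5% of what full CPM columns would hold. Because only 67.1% to 69.3% of low gene values came out as whole reads (within 0.1 of a read), no count test was used. An offset of 0.0001 was removed, transcripts of each symbol were added up, and a gene had to reach 1 CPM in 3 of 9 libraries to be tested, in 1 fit of all libraries with limma 3.58.1 (R 4.3.3, eBayes with trend) on log2(CPM + 1). TMM factors (trims 0.3 and 0.05) were computed in R, and gene sums in Python 3.11.15. Same-numbered libraries of different populations deviated together (r between 0.117 and 0.259 in 9 pairs, against -0.206 to 0.00483 in 18 others), so the numbers were taken to pair the samples; the main fit has no block. Members get their value in every library where called between the sorted populations. In each other list all called genes are named, or the 3 per direction with the smallest p where over 6 were called. The members and lists were chosen with earlier results of these data known. Single genes of these lists and of the marker lists that are counted in the totals are not reported here.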

Additional observations from a re-analysis of the deposited data

How the results depend on the processing

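Of 1692 member values recomputed under 20 alternatives, 1614 kept their side of the threshold, 48 lost a call, 30 gained one and none reversed a call. The sign changed for 60 values called in neither fit, which are counted among the 1614. Members called lower in Syndecan-2+ against Syndecan-2- numbered 2, but 4 with TMM rescaling, quantile normalization, the 6 sorted libraries alone or the replicate block (the pairing by number), 6 with TMM rescaling and block together, 3 with robust eBayes, and 1 to 4 with 1 library left out. Those called higher numbered 7, but 4 with quantile normalization, 3 with a minimum of 10 CPM, which leaves fewer members tested, 5 with TMM rescaling with or without the block, 6 with a pseudocount of 5, no filter (Fdft1 and Cyp51 lost, Scd1 tested and gained), eBayes without trend or the 6 libraries alone, and 4 to 6 with 1 library left out. Against Parent, members called lower in Syndecan-2+ numbered 1, but 2 with TMM rescaling, quantile normalization, a minimum of 10 CPM or robust eBayes, 0 with no filter, eBayes without trend or the 6 libraries alone, 3 with the block with or without TMM rescaling, and 0 to 3 with 1 library left out. Those called higher numbered 4, but 5 with eBayes without trend (Insig2 gained), 2 with a minimum of 10 CPM and 3 to 4 with 1 library left out. In Syndecan-2- against Parent the 1 lower member was lost without trend (0) and ranged from 0 to 1 with 1 library left out. Called member transcripts numbered 6, and 2 to 5 with 1 library left out. Other than as stated for filters, the cause was not tested. Changes of genes near the floor of 3 reads are limited by depth.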
